A study of Mus musculus with 2 samples.

Results

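Ccl8 encodes a CC chemokine, and its row, 1 of 32287 features, was followed cell by cell in both libraries of a mouse myocardial infarction study. All mice carried p16-2A-CreER;R26-mTmG, in which tamoxifen lets Cre made from the p16 (Cdkn2a) locus switch a membrane reporter to GFP. They had a myocardial infarction, tamoxifen by gavage on day 5, and harvest of the infarct zone on day 7, after which non-cardiomyocytes were sorted into GFPhi and GFPlo fractions, called GFP-positive and GFP-negative in other labels. There was 1 droplet library per fraction, of 91343549 UMIs in GFPhi and 104855204 in GFPlo. Whether mice were pooled is not stated, and no uninjured heart was analysed here, so no difference between libraries has a replicate check and no p-value is given. GFP marks cells in which the p16 promoter drove Cre around the tamoxifen dose, not p16 protein at harvest. Infarction, tamoxifen and reporter are common to both libraries.

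After a filter of at least 300 genes, at least 500 unique molecular identifiers (UMIs, each standing for 1 captured transcript) and at most 20% mitochondrial UMIs, 10125 of 10430 GFPhi barcodes and 11959 of 12344 GFPlo barcodes remained. Median depth was 6899 UMIs per GFPhi cell and 7712 per GFPlo cell, and 92 of the retained barcodes occurred in both libraries. Levels are given as Ccl8 UMIs per 1000000 UMIs of the cells summed (CPM), with exact 95% intervals in parentheses. These intervals cover counting error only, not the spread between cells, animals or sorts. A separate gate took cells with at least 30 C1qa, C1qb and C1qc UMIs per 10000, the complement genes that most tissue macrophages transcribe, and is called C1q-high. It held 7642 GFPhi cells (75.5%) and 55 GFPlo cells (0.460%), with 290 GFPhi cells and 7 GFPlo cells just inside it, at 30 to 40 per 10000, and 350 and 8 just outside, at 20 to 30.

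CCL8 attracts monocytes, lymphocytes and other leukocytes. In the mouse it signals mainly through the receptor CCR8, whereas human CCL8 binds several other CC chemokine receptors. The gene lies in a cluster of related chemokines with Ccl2, Ccl7, Ccl11 and Ccl12, and macrophages of many tissues are a known source of it.

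In GENCODE vM21 (mm10), Ccl8 (ENSMUSG00000009185) has 3 exons on the plus strand of chromosome 11, from 82115185 to 82116799. On the same strand, Ccl12 starts 13.3 kb, Ccl11 57.4 kb, Ccl7 69.5 kb and Ccl2 79.6 kb before it. The RefSeq promoter table (GRCm38.p6) listed Ccl8 and its nearest neighbour Ccl12, and both 300-base windows, 250 bases before to 50 after the start, are shown because these genes are compared cell by cell. Capitals mark the match to TATAAA.
Ccl8, chr11:82114935-82115234, plus strand: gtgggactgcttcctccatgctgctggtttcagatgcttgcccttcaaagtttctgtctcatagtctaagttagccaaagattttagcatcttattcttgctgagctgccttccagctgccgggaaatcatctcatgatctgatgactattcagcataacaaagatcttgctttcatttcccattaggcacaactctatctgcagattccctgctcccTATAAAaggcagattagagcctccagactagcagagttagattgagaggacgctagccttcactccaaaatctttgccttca
Ccl12, chr11:82101595-82101894, plus strand: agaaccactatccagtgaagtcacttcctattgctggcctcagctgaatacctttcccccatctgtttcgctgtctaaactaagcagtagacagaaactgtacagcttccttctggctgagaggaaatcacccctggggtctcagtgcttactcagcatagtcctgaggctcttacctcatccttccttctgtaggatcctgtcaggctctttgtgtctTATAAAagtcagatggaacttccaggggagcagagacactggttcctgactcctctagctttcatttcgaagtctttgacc
The match starts 32 bases before the start in Ccl8 (position -32) and 31 before it in Ccl12 (position -31), and 13.6% of 32851 RefSeq promoters hold TATAAA on either strand. In a global alignment, 180 of 277 aligned bases (65.0%) were identical. Neither window matched TGANTCA (AP-1), TTCNNNGAA (STAT), TTGCNNAA (C/EBP) or CCAAT on either strand, which 7.81%, 8.30%, 10.8% and 37.4% of promoters hold. AGGAAG (the ETS core) occurred 1 time in Ccl8 and 3 times in Ccl12, and 35.4% of promoters hold it. A match is a stretch of letters, not a measured binding site.

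Ccl8 was concentrated in macrophage-like cells of the GFPhi library, and above all in the cluster led by genes of tissue-resident macrophages. Of 31 clusters made from both libraries without chemokine or chemokine receptor genes, that cluster was led by Cd163 (the haemoglobin-haptoglobin scavenger receptor), F13a1 (coagulation factor XIII A), Cbr2 and Vsig4 (a complement receptor), and is called the resident-gene-led cluster. Its 1280 GFPhi cells, 12.6% of that library, held 58.7% of the library's Ccl8, at 1459 CPM (1435–1484). Its 23 GFPlo cells held no Ccl8 UMI, with an interval of 0–35.3 CPM.

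Next in order came 215 GFPhi cells led by the interferon-induced genes Ms4a4c, Rsad2 and Ifit2, at 569 CPM (534–605). A shallow macrophage-like cluster of 212 cells with a median of 879 UMIs stood at 301 CPM (239–374). The largest macrophage-like cluster, 2467 cells led by Gdf15 (a stress-induced cytokine) and with Apoe among its leading genes, stood at 230 CPM (223–236), and 421 cells led by histone and mitotic genes stood at 163 CPM (153–173).

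The lowest macrophage-like levels belonged to the 1922 cells led by H2-Eb1 and other genes of MHC class II antigen presentation, at 96.8 CPM (91.4–102), and to the 1048 cells led by Mmp12 (macrophage elastase), with Gpnmb and Spp1, at 93.8 CPM (88.7–99.1). These intervals overlap each other and that of an unnamed shallow cluster of 1047 cells at 91.3 CPM (77.7–107), so the order of these clusters is not settled by counting error alone. The interval of the resident-gene-led cluster lay above those of all the other clusters named here.

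**Figure D1:**
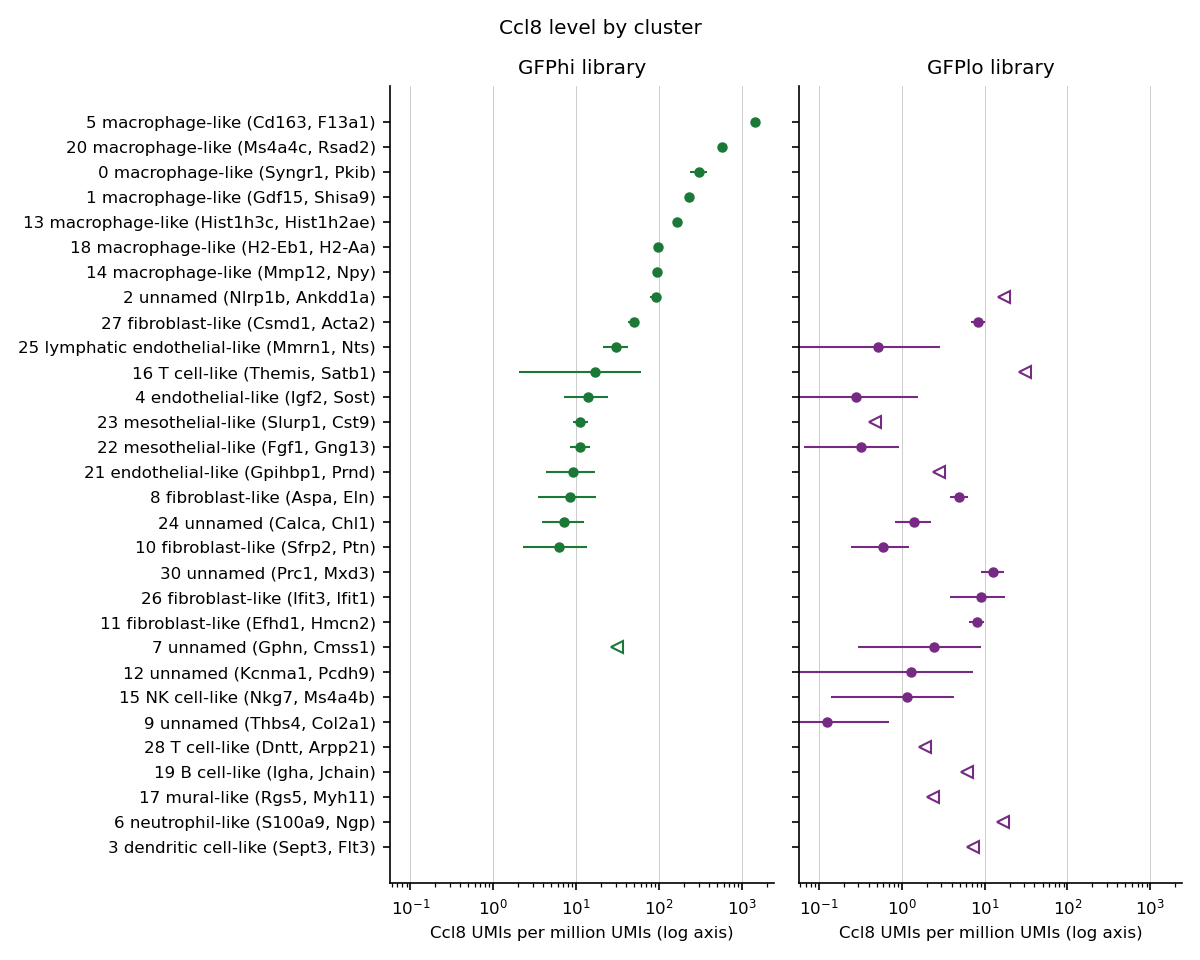
Ccl8 level in CPM (log axis) in each cluster with at least 50 cells in the library, GFPhi left and GFPlo right; points are levels, bars exact 95% counting intervals, and open triangles mark the level that 3 UMIs would give where none was found. The resident-gene-led cluster (5) of GFPhi stands highest at 1459 CPM, and the GFPlo clusters with the most Ccl8 are fibroblast-like or unnamed.

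In the C1q-high gate, Ccl8 stood at 371 CPM (366–376) in GFPhi, from 22528 UMIs, and at 20.9 CPM (7.68–45.6) in GFPlo, from 6 UMIs in 2 of 55 cells, 4 in an interferon-led cell and 2 in a cell of the MHC class II-led cluster. The ratio was 17.7 (8.14–48.3). The gates hold different clusters: of the GFPlo cells 27 were in the MHC class II-led cluster, and there the level was 99.8 CPM (94.3–106) in GFPhi and 15.8 CPM (1.92–57.1) in GFPlo. With the GFPhi levels weighted to the cluster makeup of the GFPlo cells, a comparison chosen after seeing the data, the GFPhi level was 419 CPM and the ratio 19.5. When C1q-high cells with more than 5 marker UMIs of other cell classes per 10000 were left out, 8 GFPlo cells remained with no Ccl8 UMI, and the GFPhi level was at least 4.43-fold higher.

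The GFPlo cells of the resident-gene-led cluster differed from their GFPhi counterparts in several of the genes that lead it, and 9 of the 23 were C1q-high. Cd163 stood at 162 CPM (154–171) in GFPhi and had no UMI in GFPlo, with an interval of 0–35.3 CPM. Folr2 (a folate receptor of resident macrophages) stood at 641 CPM (624–657) in GFPhi and 153 CPM (87.6–249) in GFPlo. Fn1 (fibronectin) stood at 781 CPM (763–799) in GFPhi and 3220 CPM (2885–3583) in GFPlo, and Arg1 (arginase) at 428 CPM (415–441) in GFPhi and 1504 CPM (1278–1759) in GFPlo. C1qa stood at 5496 CPM (5448–5544) in GFPhi and 2127 CPM (1857–2426) in GFPlo. Lyve1 had overlapping intervals, at 360 CPM (348–372) in GFPhi and 364 CPM (258–500) in GFPlo. The 23 GFPlo cells without a Ccl8 UMI thus also had lower Cd163, Folr2 and C1qa and higher Fn1 and Arg1.

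Outside the macrophage-like clusters of GFPhi, Ccl8 stood at 35.8 CPM (31.1–41.0) in fibroblast-like cells, 30.5 CPM (21.1–42.6) in lymphatic endothelial-like cells, 11.3 CPM (9.54–13.2) in mesothelial-like cells, 11.2 CPM (7.04–17.01) in endothelial-like cells and 8.59 CPM (2.34–22.0) in lymphocyte-like cells. C1q transcripts, which define macrophages, were found in the same cells, in 276 of the 301 fibroblast-like cells for example. Set against them, Ccl8 had 60.4 UMIs per 1000 C1q UMIs (52.2–69.4) in fibroblast-like cells, 30.8 (26.0–36.2) in mesothelial-like cells, 12.1 (7.58–18.4) in endothelial-like cells and 5.52 (1.501–14.2) in lymphocyte-like cells. The whole GFPhi library had 27.3 (26.9–27.7). The fibroblast-like value lay above that of the library, the mesothelial-like interval included it, and the endothelial-like and lymphocyte-like values lay below it. The 25 fibroblast-like cells with no C1q UMI had 36.9 CPM (19.7–63.2), against 35.8 CPM (30.9–41.1) in the 276 with one, whereas 68 endothelial-like cells with no C1q UMI had no Ccl8 UMI. Of the 34 lymphatic endothelial-like UMIs, 26 lay in 1 cell. The 25 fibroblast-like cells with no C1q UMI had 13 Ccl8 UMIs in 3 cells, 8 of them in 1 cell. Which of these UMIs came from the cells themselves and which from free macrophage RNA was not tested.

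GFPlo offered fibroblast-like cells almost without C1q. There, 5388 fibroblast-like cells held 279 Ccl8 UMIs, 78.8% of the library's 354, at 5.56 CPM (4.93–6.25), and 276 of those UMIs were in 5325 cells with no C1q UMI. Mesothelial-like cells had 0.191 CPM (0.0394–0.558), and endothelial-like cells 0.215 CPM (0.00544–1.198). Ccl8 was thus found in GFPlo fibroblast-like cells at a level above those of the mesothelial-like and endothelial-like cells of the same library. The fibroblast-like level was 6.44-fold (5.36–7.74) higher in GFPhi than in GFPlo, but different clusters made up the class. The Acta2-led cluster, led by Csmd1, Acta2 (smooth muscle actin) and Cemip, was 128 of 301 such cells and 166 of 208 Ccl8 UMIs in GFPhi, and 833 of 5388 cells and 108 of 279 UMIs in GFPlo. Its level was 49.4 CPM (42.2–57.5) in GFPhi and 8.35 CPM (6.85–10.1) in GFPlo. The cluster led by Aspa and Eln had 8.55 CPM (3.44–17.6) in GFPhi and 4.90 CPM (3.80–6.22) in GFPlo, and the one led by Efhd1, Hmcn2 and Scara5, with Pi16, had 14.2 CPM (5.72–29.3) in GFPhi and 8.07 CPM (6.48–9.93) in GFPlo. The cluster led by Sfrp2 and Ptn had 6.21 CPM (2.28–13.5) in GFPhi and 0.601 CPM (0.242–1.24) in GFPlo, and the one led by the interferon-induced Ifit3 and Ifit1 had 130 CPM (81.6–197) in 17 GFPhi cells and 8.97 CPM (3.87–17.7) in 81 GFPlo cells. The intervals of the libraries overlapped in the Aspa-led and Efhd1-led clusters and not in the others. In the Ifit3-led GFPhi cells, however, the 22 Ccl8 UMIs lay in 3 cells, 17 of them in 1 cell, and the Sfrp2-led GFPhi level rests on 6 UMIs. Mesothelial-like and endothelial-like cells also had more Ccl8 in GFPhi, at 11.3 and 11.2 CPM, than in GFPlo, at 0.191 and 0.215 CPM. The part of such a difference between whole libraries in the fibroblast-like values was not tested.

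The fibroblast-like Ccl8 of GFPlo came from few cells. Of 111 positive cells, 77 had exactly 1 UMI, while 14 cells with at least 4 UMIs held 153 UMIs (54.8%), and none of these 14 had a C1q UMI. A single cell, in the Aspa-led cluster, held 56 of that cluster's 67 Ccl8 UMIs, and without it the level was 4.45 CPM (3.88–5.07). Without the 1% of cells with the most Ccl8 it was 1.31 CPM. An unnamed cluster of 175 GFPlo cells led by the mitotic genes Prc1 and Cenpf stood higher than the fibroblast-like class, at 12.6 CPM (8.97–17.1).

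The fibroblast-like GFPlo cells without C1q that held Ccl8 were also rich in its locus neighbours. The comparison, chosen after seeing the data, set 110 cells with Ccl8 at full depth against 5154 without, with every cell thinned at random to 2000 UMIs, and their median full depths were 15083 and 8176.5 UMIs. Of 4935 genes, 410 (8.31%) were at least 1.5-fold higher and 784 (15.9%) at least 1.5-fold lower. Ccl7 was 6.44-fold higher (5.16–7.96), found in 29.1% of cells with Ccl8 and 5.28% of cells without, and Ccl2 was 4.77-fold higher (3.90–5.78). Plac8 was 6.13-fold higher (4.80–7.76) and Timp1, an inhibitor of matrix metalloproteinases, 3.97-fold higher (3.57–4.42). The elastic fibre genes Eln and Fbln5 had ratios of 0.127 (0.105–0.152) and 0.280 (0.193–0.394). Ccl12 had no UMI in either set of thinned cells. The cluster led by Aspa and Eln was 1810 of the 5388 fibroblast-like cells and 7 of the 111 with Ccl8. Cluster makeup was not held equal here, and the parts of depth and makeup in these ratios were not tested.

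Even in the GFPhi macrophages, most cells had no Ccl8 and a few had very much. Of the 7642 C1q-high GFPhi cells, 72.5% had no Ccl8 UMI at full depth, 795 had exactly 1, 467 had at least 10 and 34 had at least 100, with a highest value of 265 UMIs in a cell of 8101 UMIs. The 76 cells in the top 1% held 38.7% of all Ccl8 UMIs in the gate, the top 5% held 77.0% and the top 10% held 89.9%. Of the 15 GFPhi cells with the most Ccl8, all but 3 belonged to the resident-gene-led cluster.

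**Figure D2:**
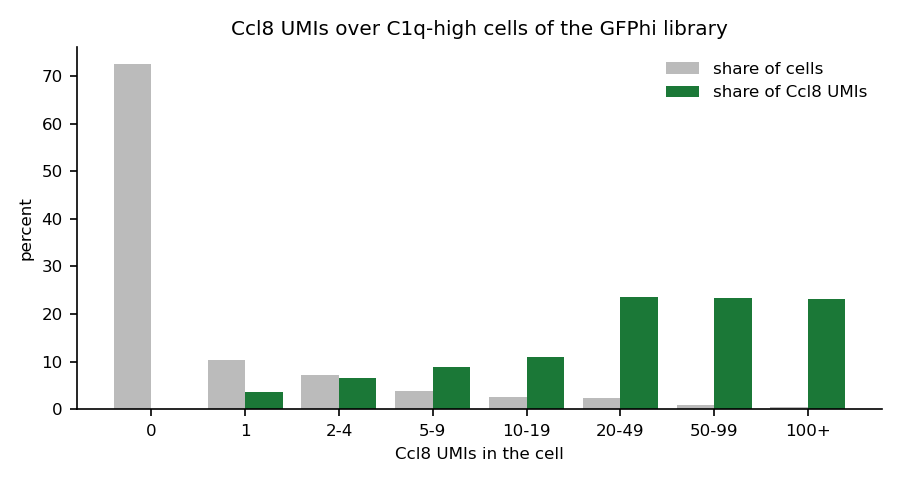
C1q-high GFPhi cells by the number of Ccl8 UMIs each held (x axis); grey bars give the percent of the 7642 cells and green bars the percent of their 22528 Ccl8 UMIs. Cells with no Ccl8 are 72.5% of cells, and the 279 cells with at least 20 UMIs hold 70.1% of the UMIs.

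To compare macrophages at 1 depth, each C1q-high GFPhi cell was thinned in the same way. This left 7066 cells, with 576 too shallow to use. Of these, 17.1% (16.2–17.97) had at least 1 Ccl8 UMI and are called Ccl8-positive, 1206 cells against 5860 Ccl8-negative ones. At the same depth Ccl8 was found in 1.34% of mesothelial-like cells and 1.39% of endothelial-like cells of GFPhi, classes whose median full depths were 29238 and 4651 UMIs, against 6892 in the C1q-high gate. It was found in 3.03% of lymphatic endothelial-like cells, 4.36% of fibroblast-like cells and 4.81% of cells in unnamed clusters. The mean was 0.826 UMIs per thinned cell, and the variance was 17.5 times the mean, rank 9 of 4171 genes, whose median was 1.05. A Poisson count with that mean would leave 43.8% of cells without Ccl8, whereas 82.9% had none.

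Genes of tissue-resident macrophages accompanied Ccl8 most. Of 4170 genes with a mean of at least 0.05 UMIs per thinned cell, 184 (4.41%) were at least 1.5-fold higher and 90 (2.16%) at least 1.5-fold lower in Ccl8-positive than in Ccl8-negative cells, with a median ratio of 1.02. Of 13 measured resident macrophage genes, 11 were higher and none lower, with a median ratio of 3.05. Both kinds of cell had similar median full depths, 7063.5 UMIs in Ccl8-positive and 7234.5 in Ccl8-negative cells.

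Cd163 had 0.195 UMIs per Ccl8-positive cell and 0.0369 per Ccl8-negative cell, a ratio of 5.29 (4.38–6.39). Folr2 had 0.838 and 0.213 UMIs in Ccl8-positive and Ccl8-negative cells, a ratio of 3.93 (3.61–4.27), and Mrc1 (the mannose receptor) 1.42 and 0.466, a ratio of 3.05 (2.87–3.25). Lyve1, a hyaluronan receptor of perivascular macrophages, had a ratio of 2.98 (2.58–3.43). Igf1, a growth factor, was among the members under 1.5-fold, at 1.17. Timd4 and Vsig4, the other members of the list, fell under the minimum level.

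The 12 genes with the highest ratios by the nearer bound of the interval added other uptake and complement genes to these. C4b (complement C4) had the largest ratio, 5.74 (4.98–6.62), although reads of its near-identical copy C4a cannot be separated with certainty. Clec10a (a galactose lectin) had 4.64 (3.88–5.53), Colec12 (a collectin scavenger receptor) 4.38 (3.58–5.35), Gas6 (a bridge between dying cells and phagocytes) 3.76 (3.38–4.19), Cd38 (an NAD-consuming ectoenzyme) 3.64 (2.94–4.52) and Ddx60 (an interferon-induced helicase) 3.35 (2.72–4.12). Cbr2, F13a1 and Fcna (ficolin A) completed the 12, at 4.57, 4.13 and 3.47.

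The share of Ccl8-positive cells was higher with each step in the number of resident macrophage genes a thinned cell held, from 3 genes upward. It was 7.05% (4.16–11.1) of 241 cells with none of them and 6.47% (5.52–7.53) of 2411 cells with 1 or 2. It was 14.0% with 3 or 4, 26.5% with 5 or 6, 43.1% with 7 or 8, 55.7% with 9 or 10, and 63.9% (56.2–71.1) of 169 cells with 11 to 15. By single genes, 51.0% (45.2–56.8) of cells with Cd163 and 15.6% (14.7–16.4) without it had Ccl8. For Timd4, a phosphatidylserine receptor of long-lived macrophages, 58 of 145 cells with it (interval 32.0–48.5%) and 16.6% (15.7–17.5) of cells without it had Ccl8.

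**Figure D3:**
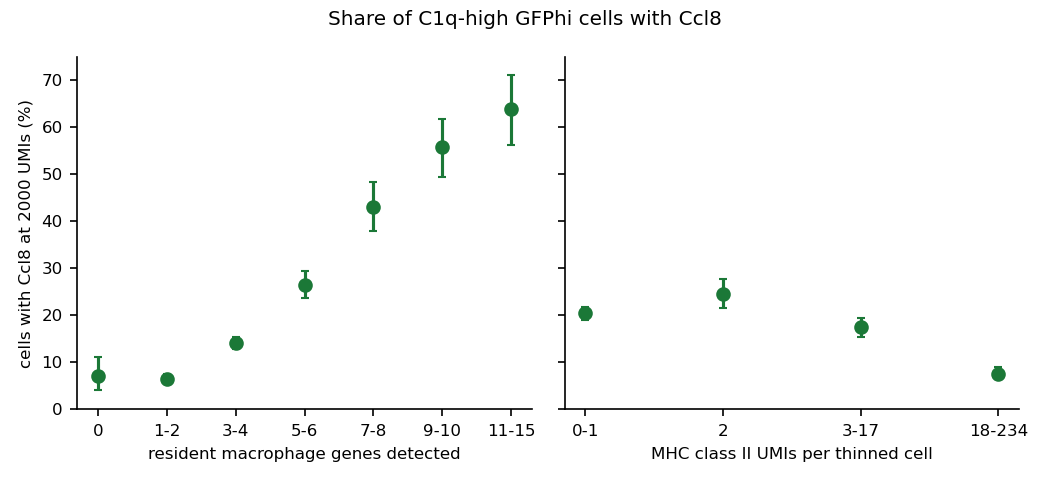
Percent of C1q-high GFPhi cells with Ccl8 at 2000 UMIs, by the number of resident macrophage genes detected (left) and by UMIs per cell of the MHC class II list, which includes Cd86 (right). Bars are exact 95% intervals. The share is 6.47% with 1 or 2 resident genes and 63.9% with 11 to 15, and 7.56% in the cells with the most UMIs of the MHC class II list.

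Antigen presentation genes went the other way. Of 7 measured genes of the MHC class II list, 6 were at least 1.5-fold lower in Ccl8-positive cells and none higher, with a median ratio of 0.351. H2-Eb1 had 1.28 UMIs per Ccl8-positive cell and 4.26 per Ccl8-negative cell, a ratio of 0.300 (0.285–0.316). Cd74 (the invariant chain) had 3.09 and 8.83 UMIs in Ccl8-positive and Ccl8-negative cells, a ratio of 0.349 (0.338–0.361). Cd86, a costimulatory ligand on the same list, had a ratio of 1.30. Cells were also split by their UMIs of all 8 members of the list, Cd86 and Ciita included. Of the 3108 cells with 0 or 1 such UMI, 20.4% (18.96–21.8) had Ccl8. The share was 24.6% (21.6–27.8) of those with 2, 17.4% (15.5–19.5) of those with 3 to 17, and 7.56% (6.37–8.91) of the 1745 cells with 18 or more.

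Monocyte genes and part of the lipid-associated genes were lower as well. Of 4 measured monocyte-derived genes, 3 were lower: Ccr2 (the receptor for CCL2) had a ratio of 0.452 (0.360–0.560), S100a4 0.476 (0.441–0.513) and Fn1 0.610 (0.535–0.693), with Ms4a4c at 0.909. Of 13 lipid and phagocytic genes 4 were lower, led by Mmp12 at 0.299 (0.254–0.351), then Cd9 at 0.504, Lgals3 (galectin 3) at 0.575 and Lpl (lipoprotein lipase) at 0.636. Trem2, Spp1 and Gpnmb had ratios of 0.925, 0.834 and 0.865. The lowest 12 genes also held S100a6 at 0.503, Tnip3 at 0.397, Sh2d1b1 at 0.385 and Bcl2a1a at 0.408, which shares reads with close copies. Igha, an immunoglobulin chain of plasma cells, had a ratio of 0.0252 (0.00305–0.0918), but it was found in 0.166% of Ccl8-positive and 0.205% of Ccl8-negative cells, so a few cells set that ratio.

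Programs of inflammation and stress differed little. Of 11 NF-kB and inflammatory genes, none was higher and 1 lower, Il1b at 0.644 (0.607–0.683), and Tnf had 0.718. All 8 dissociation stress genes lay within 1.5-fold, for example Fos at 1.01 and Jun at 1.08, and so did all 5 cell cycle genes, for example Mki67 at 0.902. Of 9 interferon response genes, 4 were higher and none lower, among them Ifit3 at 1.66 (1.32–2.09), Oasl2 at 1.58 and Irf7 at 1.54. Of 9 alternative activation genes, 4 were higher: Mrc1 as above, Il10 (an anti-inflammatory cytokine) at 2.20 (1.801–2.68), Il4ra at 1.83 (1.53–2.20) and Klf4 at 1.59. Arg1 was lower, at 0.435 (0.335–0.558).

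**Figure D4:**
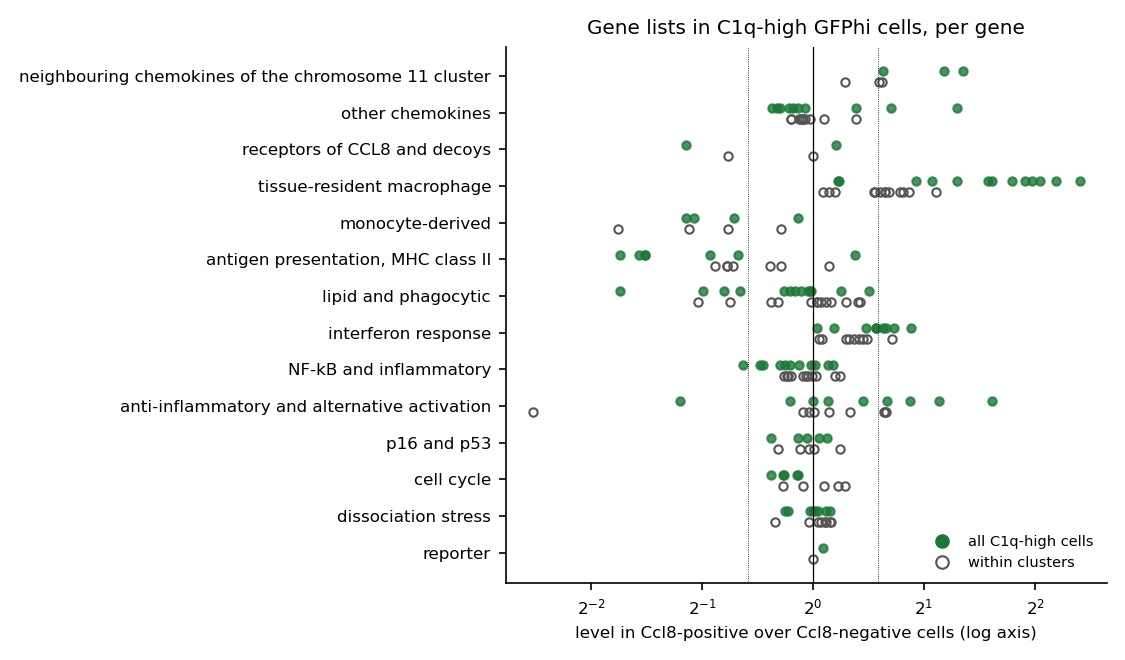
Ratio of the level in Ccl8-positive to that in Ccl8-negative C1q-high GFPhi cells (log axis), a point per measured gene of each list; filled points use all cells, open points hold the cluster makeup equal, and dotted lines mark 1.5-fold either way. Resident macrophage genes lie to the right (median 3.05) and genes of the MHC class II list other than Cd86 to the left (list median 0.351). Both medians lie nearer 1 within clusters.

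The neighbouring chemokines were also higher in Ccl8-positive cells. All 3 measured members of the locus were higher: Ccl7 had 1.61 UMIs per Ccl8-positive cell and 0.633 per Ccl8-negative cell, a ratio of 2.55 (2.41–2.69). Ccl12 had 1.61 and 0.714, a ratio of 2.26 (2.14–2.39), and Ccl2 1.61 and 1.04, a ratio of 1.55 (1.47–1.63). Ccl11 and Ccl1 fell under the minimum level. Of 10 measured members of a list of other chemokines, 2 were higher, Pf4 (platelet factor 4) at 2.46 (2.38–2.55) and Ccl6 at 1.63 (1.52–1.75), whereas Ccl3 had 0.858 and Ccl4 0.774.

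Among cells split by Ccl7 and Ccl12, Ccl8 was found most often where both were detected. It was present in 35.0% (31.4–38.8) of the 657 cells with both Ccl7 and Ccl12, in 20.2% (17.6–23.1) with Ccl7 alone, in 21.5% (19.2–24.0) with Ccl12 alone and in 12.6% (11.7–13.7) of the 4420 cells with neither. In the 158 cells with Ccl24, a chemokine under the minimum level, the share with Ccl8 was higher, at 45.6% (37.6–53.7). Among cells with Cd163, Ccl8 was found in 58.3% (49.4–66.8) with Ccl7 and 45.3% (37.7–53.1) without it. Among cells without Cd163, the shares were 23.6% (21.4–25.9) with Ccl7 and 13.5% (12.6–14.4) without it.

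By cluster the locus did not move as a unit. In the resident-gene-led GFPhi cells Ccl8, Ccl7, Ccl2 and Ccl12 stood at 1459, 1255, 1212 and 934 CPM. In the interferon-led cluster the same genes stood at 569, 733, 974 and 1986 CPM, with Ccl12 highest. In the Mmp12-led cluster Ccl2 stood at 552 CPM and Ccl7 at 262 CPM, against 93.8 CPM for Ccl8 and 41.6 CPM for Ccl12. These levels are per UMI of a 3′ library and carry no length correction. In GFPlo fibroblast-like cells Ccl2 and Ccl7 stood at 140 and 97.4 CPM, Ccl8 at 5.56 CPM, and Ccl12 at 0.0598 CPM from 3 UMIs.

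Across the 19 clusters with at least 50 GFPhi cells, the genes whose log2(CPM + 1) followed Ccl8 most closely among 6571 genes were Fcgr2b (the inhibitory Fc receptor, r = 0.951), Aif1 (r = 0.939), Epn1 (r = 0.939), P2ry6 (r = 0.937), Ifi207 (r = 0.928), Nxpe5 (r = 0.926), Lair1 (r = 0.926) and Tlr2 (r = 0.923). Ccl12 was at rank 27 (r = 0.890), Ccl2 at 960 (r = 0.558) and Ccl7 at 996 (r = 0.544). The points are clusters of 1 library, differ in depth and mix macrophage-like with other cells, so these values describe a pattern over those clusters and no more.

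Part of the co-detection was a difference between clusters. With Ccl8-positive and Ccl8-negative cells weighted to the same cluster makeup, 49 genes (1.18%) stayed over 1.5-fold higher and 52 (1.25%) over 1.5-fold lower. The median for resident macrophage genes was then 1.57, with 8 of 13 higher, and that for the MHC class II list 0.608, with 4 of 7 lower. Cd163 had a ratio of 1.73, Folr2 1.82 and Lyve1 1.06, whereas Clec10a kept 3.23 and C4b 2.49. Ccl7 had 1.54, Ccl12 1.51 and Ccl2 1.22, and Ccl6 turned to 0.917.

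Within the resident-gene-led cluster alone, a comparison chosen after seeing the data, Ccl8 marked off a subset of cells. Of 1192 thinned C1q-high GFPhi cells, 463 were Ccl8-positive and 729 Ccl8-negative. Of 4744 genes, 184 (3.88%) were at least 1.5-fold higher and 284 (5.99%) at least 1.5-fold lower. Clec10a had 0.447 UMIs per Ccl8-positive cell and 0.125 per Ccl8-negative cell, a ratio of 3.58 (2.79–4.63). C4b had 2.20 (1.88–2.58), Gas6 2.03 (1.76–2.35), Folr2 1.88 (1.70–2.08), Colec12 2.25 (1.76–2.88) and Tslp, an epithelial and stromal cytokine, 4.20 (2.40–7.67) from 48 UMIs in Ccl8-positive and 18 in Ccl8-negative cells.

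The genes that were lower there were of another kind. Arg1 had 0.121 UMIs per Ccl8-positive cell and 0.812 per Ccl8-negative cell, 6.71-fold lower, with a ratio of 0.149 (0.111–0.196). Fn1 had 0.251 and 1.51 UMIs in Ccl8-positive and Ccl8-negative cells, a ratio of 0.166 (0.136–0.201). S100a4 had a ratio of 0.253 (0.214–0.297), Thbs1 (thrombospondin 1) 0.227 (0.148–0.336), Hopx 0.102 (0.0323–0.249) and the scavenger receptor Marco 0.0801 (0.0161–0.246). The genes that lead the cluster did not split alike. Arg1 and Folr2 are among them, at 0.149 and 1.88, as are Mrc1 at 1.64 (1.52–1.77), Cbr2 at 1.46, Vsig4 at 1.43, F13a1 at 1.39, Fcna at 1.39, Cd163 at 1.27 (1.05–1.54) and Timd4 at 0.869 (0.630–1.19).

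By cell in that cluster, 58.9% (51.5–66.1) of those with Clec10a and 35.2% (32.2–38.2) of those without had Ccl8. For Fn1 the shares were 21.9% (17.2–27.2) with and 44.0% (40.8–47.3) without, and for Arg1 20.2% (14.5–27.0) with and 42.0% (38.9–45.1) without. Fn1 and Arg1 are abundant in macrophages of serous cavities, among other cells. Gata6, the transcription factor that defines those macrophages, had 16 UMIs in the 1280 GFPhi cells, 1.73 CPM (0.986–2.80), and their gene Prg4 had 29.0 CPM (25.6–32.7). In the thinned cells, Prg4 had 1 UMI in Ccl8-positive and 34 in Ccl8-negative cells, a ratio of 0.0463 (0.00114–0.276). F5 had 0 UMIs in Ccl8-positive and 18 in Ccl8-negative cells, Icam2 2 and 21, Alox15 0 and 7, Selp 1 and 6, Cxcl13 14 and 45, and Gata6 1 and 2. These UMIs come from 463 Ccl8-positive and 729 Ccl8-negative cells. As ratios per cell, the intervals of Prg4, F5, Icam2 and Cxcl13 lay below 1. Those of Alox15 (0–1.09), Selp (0.00571–2.16) and Gata6 (0.0133–15.1) included 1. Prg4, F5, Icam2 and Cxcl13 thus had fewer UMIs per cell in Ccl8-positive cells, as did Fn1 and Arg1. Few cells set some of these ratios, and the intervals do not cover the spread between cells. Prg4 was found in 1 Ccl8-positive and 12 Ccl8-negative cells, F5 in 0 and 16, Icam2 in 2 and 15, and Cxcl13 in 5 and 14. All these markers were listed after seeing the data, and their part in the split was not tested.

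**Figure D5:**
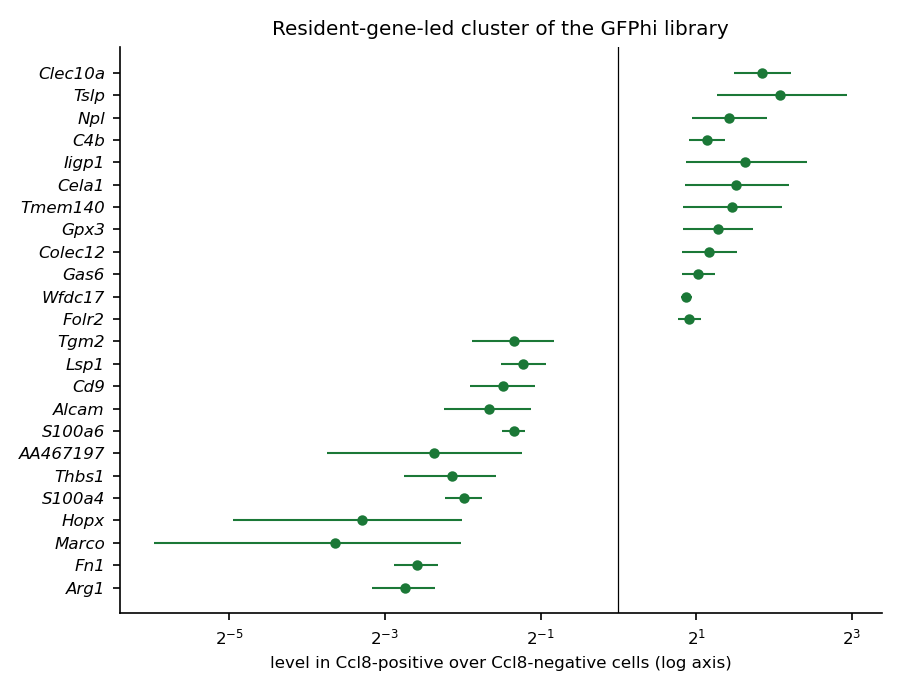
Ratio of the level in Ccl8-positive to that in Ccl8-negative cells (log axis) of the resident-gene-led GFPhi cluster, for the 12 genes with the highest and the 12 with the lowest ratios by the nearer bound; bars are exact 95% intervals. Clec10a stands at 3.58 and Arg1 at 0.149.

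Levels of the reporter transcript and of the measured p53 pathway genes differed little between Ccl8-positive and Ccl8-negative cells. The p16 transcript was too sparse for that comparison. All 5 measured p16 and p53 genes lay within 1.5-fold, with Cdkn1a (p21) at 0.962 (0.914–1.01) and Gdf15 at 1.04 (0.986–1.09), and the reporter feature mGFP had a ratio of 1.06 (0.829–1.35). Cdkn2a itself fell under the minimum level. At full depth it was found in 55 C1q-high GFPhi cells, of which 54.5% (40.6–68.0) had Ccl8, against 27.3% (26.3–28.3) of the 7587 cells without it. Their median depths differed, at 12367 UMIs with and 6869 without Cdkn2a, and with cells thinned to 4000 UMIs the shares were 33.3% (17.3–52.8) of 30 cells with it and 22.5% (21.4–23.5) of cells without it. The Ccl8 level was 351 CPM (312–393) in cells with Cdkn2a and 371 CPM (366–376) in cells without it. In the resident-gene-led cluster the level was 477 CPM (395–570) in the 23 cells with Cdkn2a and 1515 CPM (1489–1540) in the 1222 cells without it. In the other clusters the order was the opposite, with 298 CPM (256–345) in 32 cells with Cdkn2a and 173 CPM (170–177) in 6365 without it. These levels rest on 119 and 177 Ccl8 UMIs in the cells with Cdkn2a. The spread between cells was not tested for them or for the levels by mGFP. The full-depth shares with Ccl8 did not reverse. In the resident-gene-led cluster they were 65.2% (42.7–83.6) with Cdkn2a and 51.9% without it, a value inside that interval. In the other clusters they were 46.9% (29.1–65.3) with and 22.6% without Cdkn2a. Cells with Cdkn2a were deeper in both, with medians of 8515 and 16738.5 UMIs against 6347 and 6966.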

How the data were processed

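The authors deposited a matrix of raw UMI counts per library, whole numbers used as they stood. Genes were counted on mm10, per the submitters' processing notes. The labels' protocols name a SeekOne 3′ droplet kit and the labels' description 10x Genomics. The aligner was not given in the sources used here. Both libraries were filtered and clustered together in scanpy 1.11.5 (Python 3.11.15): 2000 variable genes without chemokines, chemokine receptors, Cdkn2a and reporter features, 30 components, 15 neighbours, Leiden resolution 1. They were not integrated, and no doublet caller was run. A cluster was named from at least 3 markers at 2 times the rest and in 10% of its cells, and otherwise left unnamed. Levels have exact Poisson intervals, shares Clopper-Pearson intervals and ratios exact conditional intervals. A count of 0 was given the level of 3 counts. The co-detection scripts were tested on simulated data. Genes were named as list members, as the 12 highest and 12 lowest ratios by the nearer bound, and as the 8 genes most like Ccl8 with at least 50 CPM in a cluster. Ccl8, the lists and the rules were chosen with earlier results of these data known. Some members of the lists are counted but not reported here by name.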

Additional observations from a re-analysis of the deposited data

How the results depend on the processing

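No paired analysis was possible because each fraction had 1 library. The C1q-high ratio of 17.7 ranged from 12.7 at a gate of 60 C1q UMIs per 10000 to 21.7 with each cell weighted equally, and was at least 4.43 without cells holding markers of other classes. The share of 17.1% was 18.3% at the gate of 60, 12.3% with cells thinned to 1000 UMIs and 22.5% at 4000. The 184 higher and 90 lower genes numbered 271 and 164 at 1000 UMIs, 333 and 200 with Ccl8-positive cells taken from 2 UMIs, 49 and 52 within clusters, and 1614 and 1305 with no minimum but 10 UMIs. Ccl6 turned to 0.917 within clusters. The level in the resident-gene-led GFPhi cluster, 1459 CPM, was 1243 CPM without its 1% of cells with the most Ccl8. That of GFPlo fibroblast-like cells, 5.56 CPM, was 1.31 CPM without such cells and 4.36 CPM with each cell weighted equally. The causes of these shifts were not tested. Of 572 alternatives for 52 named genes, 341 left a ratio inside its interval. Another 230 lay outside it or had no interval to compare with, as for Timd4 and Vsig4, which fell under the minimum level. Among genes past 1.5-fold, 1 alternative turned a direction. Smaller ratios that crossed 1, such as Mki67 from 0.902 to 1.07 within clusters, were not counted as turned. Leaving out the shared barcodes, chosen after seeing the data, gave 174 higher and 105 lower genes. Depth limits the GFPlo macrophages, where 6 UMIs carry the comparison.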

Other observations

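The receptor transcripts differed in where they lay. Ccr8, the main mouse receptor, had 3 UMIs in the whole GFPhi library and 8 in GFPlo, of which 2 and 7 were in the cluster led by Nkg7 and Ms4a4b, which are cytotoxic lymphocyte genes. Ccr2 stood at 196 CPM (188–203) in the MHC class II-led GFPhi cells and at 56.4 CPM (51.7–61.4) in the resident-gene-led ones. Ackr2, a decoy that removes CC chemokines, stood at 117 CPM (97.5–138) in GFPhi and 83.6 CPM (71.1–97.6) in GFPlo lymphatic endothelial-like cells.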
